A study of Mus musculus with 4 samples.

Results

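The genes described here control plasminogen activation and the start of coagulation. They are the 9 listed genes Plat, Plau, Plaur, Serpine2, Serpinb2, F3, Thbd, Tfpi and Tfpi2, taken by name from 18194 named genes, with all of their probe sets. They had 14 probe sets among 45037 on the array. Of the 9 genes, 8 were called Present on at least 1 array and were compared by the rule given below, and Plau was Absent on all 4 arrays. A probe set is a group of short probes for 1 transcript, and a Present, Marginal or Absent call says whether its signal stood above its mismatch background.

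RNA was taken from the parietal peritoneum, which lines the inside of the abdominal wall, of mice on a C57BL/6J background. The 4 groups were SAP-BNP-Tg mice given chlorhexidine gluconate (CG Tg), SAP-BNP-Tg mice given ethanol/PBS (PBS Tg), wild-type mice given chlorhexidine gluconate (CG WT) and wild-type mice given ethanol/PBS (PBS WT). SAP-BNP-Tg mice carry brain natriuretic peptide, a hormone that raises cyclic GMP, under the serum amyloid P promoter, which is active in the liver. Chlorhexidine, an antiseptic that irritates the peritoneum, was injected into the peritoneal cavity as a 0.1% solution in 15% ethanol and 85% PBS. The volume was 0.01 mL per gram of body weight, given 3 times per week over 21 days. The labels give no ethanol share, volume or schedule for the control injections, no ages, and no number of mice behind the single array of each group.

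Plasmin, the protease that dissolves fibrin, is made from plasminogen by the tissue activator (Plat) and by urokinase (Plau), which is held at the cell surface by its receptor (Plaur). Serpins such as Serpine2 and Serpinb2 inhibit these proteases. Clotting starts when tissue factor (F3) binds factor VII, and it is held back by the Kunitz inhibitor Tfpi and by thrombomodulin (Thbd), which turns thrombin towards protein C activation. The peritoneal lining is known for strong fibrinolytic activity, and its loss is associated with fibrin deposits and adhesions.

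The arrays called 53.5% (CG Tg), 52.5% (PBS Tg), 55.1% (CG WT) and 50.5% (PBS WT) of probe sets Present. The PBS WT array stood apart in some of its controls, with a mean 18S rRNA signal of 1052 against 81.5 to 108 on the other 3 arrays. For beta-actin, the 3-prime probe set was 5.81 times as bright as the middle one there, against 2.23 to 2.84 times on the others. The 3-prime to 5-prime ratio was 1.22 there, against 1.07 to 1.15 on the others. Nppb, which encodes the transgenic hormone, was Absent on all 4 arrays, so it does not check the genotype labels. All 9 mesothelial markers were Present on every array, and so were all 6 markers of skeletal muscle, the wall beneath the lining. In such a mixed tissue, fewer cells of a type and less RNA per cell cannot be told apart.

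With 1 array per group, no difference below has a replicate check. Signals are intensities after the arrays were brought to a common trimmed mean. The word called is kept for a signal difference of at least 2-fold whose brighter array was Present and reached the 25th percentile of Present signals there. Where all 4 arrays enter a result, the brightest of the 4 had to meet these conditions. Calls carry no p-value, and each count stands beside the share of all 12755 tested genes that the same rule called. Because earlier results of these data were known when the genes and lists were chosen, a count above that share tests nothing.

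With chlorhexidine, 0 of the 8 tested genes were called higher in transgenic mice and 5 in wild type. The 5 were Plaur, Tfpi, Tfpi2, Plat and F3. Of all genes, 3.81% were called higher in transgenic mice and 8.22% in wild type. The 8 genes had a median log2 difference of 0.46 in transgenic mice and 1.82 in wild type, where 50.1% and 49.9% of all genes lay above 0. All 8 lay above 0 in transgenic mice, by 0.11 to 0.81, and 7 of 8 did in wild type. None was called lower, where the rule called 1.4% of all genes lower in transgenic mice and 4.93% in wild type. None was therefore called in both genotypes, against 3.03% of all genes higher and 0.823% lower in both.

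Upstream sequence from RefSeq was at hand for 6 of the 9 genes, and a site for AP-1, the Fos and Jun transcription factor pair long studied at the tissue factor and urokinase receptor promoters, was searched in it. The motif was TGANTCA, which reads the same on both strands, in the 250 bases before each start. It was found before 4 of the 6 genes, F3, Plaur, Serpinb2 and Tfpi2. For all genes the share was 7.82% of 27025 genes, or 6.75% of 32851 windows. The motif was picked after the data were seen and for its known place at promoters of F3 and Plaur, so the count supports nothing about the 6 genes as a group. F3 held it at 146 and 135 bases before its start, and 0.338% of all windows held it more than once. The windows below are those of the 4 genes, as 5′ to 3′ sequence of the gene's strand on GRCm38.p6, with motif matches in capitals. They cover chr3:121723287-121723536 on the plus strand (F3), chr7:24462233-24462482 on the plus strand (Plaur), chr1:107511173-107511422 on the plus strand (Serpinb2) and chr6:3968376-3968625 on the minus strand (Tfpi2).
F3: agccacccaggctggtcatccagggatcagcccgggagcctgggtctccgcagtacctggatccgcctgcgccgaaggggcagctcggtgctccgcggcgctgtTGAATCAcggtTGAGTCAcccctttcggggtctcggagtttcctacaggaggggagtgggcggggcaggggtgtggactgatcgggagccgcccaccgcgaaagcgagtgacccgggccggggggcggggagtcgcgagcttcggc
Plaur: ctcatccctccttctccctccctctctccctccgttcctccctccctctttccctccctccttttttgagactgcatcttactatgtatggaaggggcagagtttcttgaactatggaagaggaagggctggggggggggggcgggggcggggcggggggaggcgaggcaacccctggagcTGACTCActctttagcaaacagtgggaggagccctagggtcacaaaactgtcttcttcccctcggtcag
Serpinb2: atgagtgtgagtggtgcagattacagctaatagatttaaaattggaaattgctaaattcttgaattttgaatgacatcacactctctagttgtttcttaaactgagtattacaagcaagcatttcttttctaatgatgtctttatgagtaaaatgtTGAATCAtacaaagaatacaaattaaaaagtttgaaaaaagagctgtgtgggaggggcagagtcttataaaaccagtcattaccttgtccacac
Tfpi2: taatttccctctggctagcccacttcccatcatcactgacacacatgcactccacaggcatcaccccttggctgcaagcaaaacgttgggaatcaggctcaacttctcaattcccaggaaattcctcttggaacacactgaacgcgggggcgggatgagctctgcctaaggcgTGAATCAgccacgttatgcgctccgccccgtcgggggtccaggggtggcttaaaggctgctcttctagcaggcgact
The matches stand 69 bases before the start in Plaur, 94 in Serpinb2 and 77 in Tfpi2. The other Serpinb2 window overlaps the one shown and holds the same match. The other 2 Tfpi2 windows, both Tfpi windows and the Serpine2 window held none. A match describes the letters only, since no binding was measured.

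The tissue activator Plat had signals of 268 (CG Tg), 153 (PBS Tg), 356 (CG WT) and 108 (PBS WT), all Present. Both chlorhexidine arrays were brighter than both vehicle arrays, and the wild-type pair lay further apart. Plat was 1.75-fold higher with chlorhexidine in transgenic mice, which is under the rule's size, and 3.31-fold higher in wild type. A second, dim Plat probe set had signals of 11.1 (CG Tg), 8.16 (PBS Tg), 19.4 (CG WT) and 10.9 (PBS WT) and was Present on the CG WT array alone.

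Urokinase (Plau) was not detected. Its 2 probe sets were Absent on all 4 arrays, with signals between 0.585 and 9.74, so no fold is given. Its receptor Plaur, which also marks activated myeloid cells, was Present on all 4 arrays at 58.2 (CG Tg), 37.2 (PBS Tg), 80.4 (CG WT) and 13.8 (PBS WT). The PBS WT array was the dimmest, and the PBS Tg array lay between it and the chlorhexidine arrays. Plaur was 1.56-fold higher with chlorhexidine in transgenic mice and 5.82-fold higher in wild type. Subtracting the wild-type log2 difference of Plaur from the transgenic one gave -1.90.

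**Figure D1:**
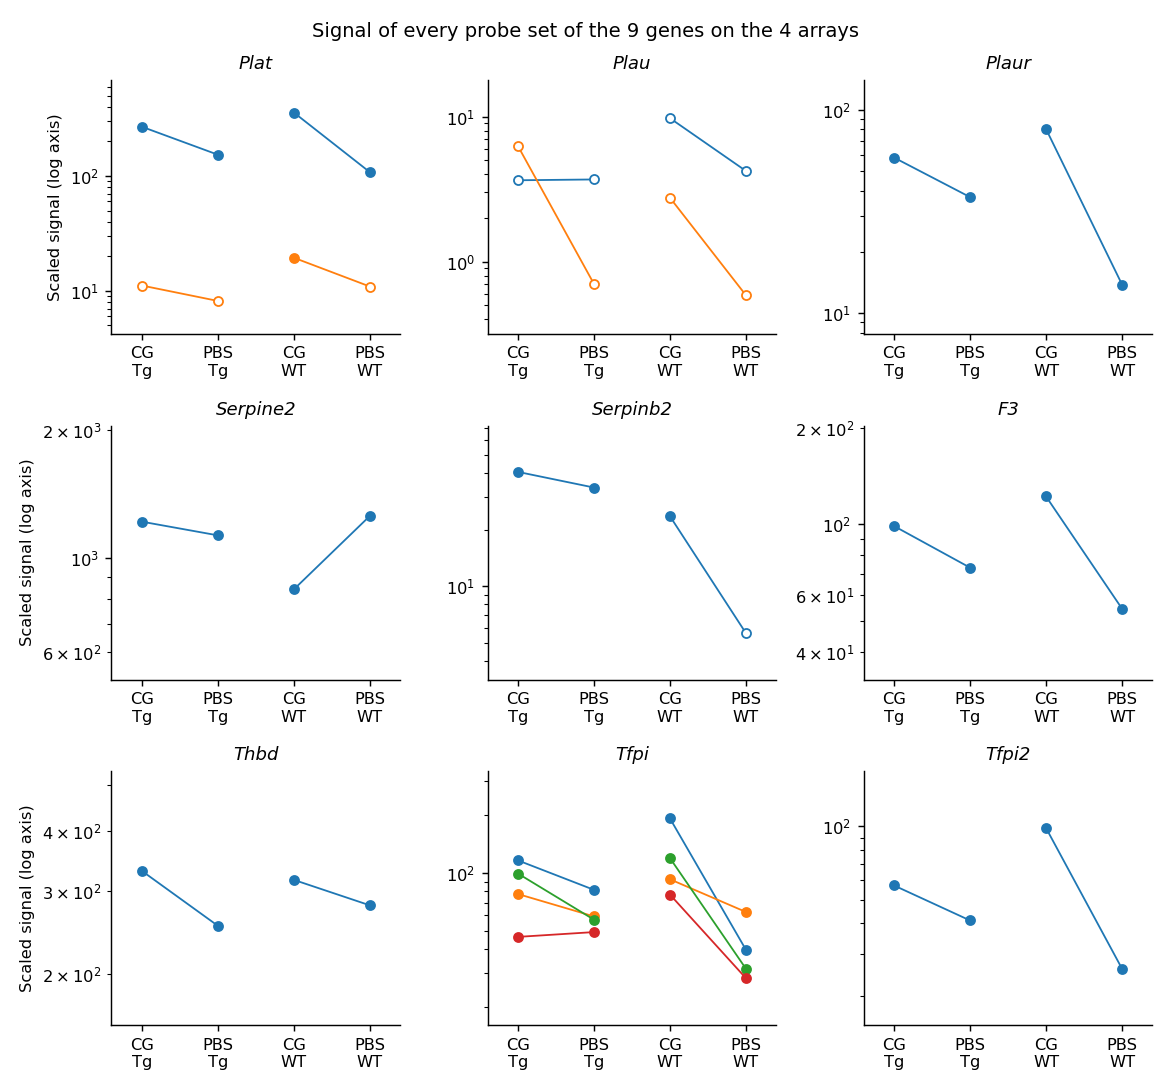
Scaled signal (log axis, a range of its own in each panel) of every probe set of the 9 genes on the CG Tg, PBS Tg, CG WT and PBS WT arrays, 1 array per group. Filled points were called Present and open points were not, each colour is 1 probe set, and the PBS WT array is the dimmest for 6 of the 8 detected genes by the probe set used for the gene.

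The 2 serpins followed different orders over the arrays. Serpine2, also called protease nexin, a secreted inhibitor of thrombin, urokinase and the tissue activator, had signals of 1217 (CG Tg), 1129 (PBS Tg), 843 (CG WT) and 1256 (PBS WT), all Present. The CG WT array was the lowest and the other 3 lay within a narrow range. Its chlorhexidine difference was 1.08-fold higher in transgenic mice and 1.49-fold lower in wild type, neither of them past the rule. The transgenic value was -0.10 on the log2 scale with signals as deposited and -0.05 against the PBS WT array.

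Serpinb2, a mostly intracellular inhibitor of urokinase made by activated macrophages and some epithelia, had signals of 40.7 (CG Tg), 33.6 (PBS Tg) and 23.6 (CG WT), all Present. It was Absent on the PBS WT array, at 5.62. Both transgenic arrays were therefore brighter than both wild-type arrays. Serpinb2 was 1.21-fold higher with chlorhexidine in transgenic mice. In wild type it was 4.20-fold higher over its own Absent signal, so that size is uncertain. The CG WT signal was under the 25th percentile of Present signals, 35.0, and was not called. Against the PBS Tg array, the CG WT signal was 1.42-fold lower.

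Tissue factor (F3), the cell surface trigger of clotting, had signals of 98.7 (CG Tg), 73.2 (PBS Tg), 122 (CG WT) and 54.4 (PBS WT). It kept the order of Plat and Plaur over the arrays, with smaller steps. F3 was 1.35-fold higher with chlorhexidine in transgenic mice and 2.24-fold higher in wild type. The wild-type call was lost after quantile normalization or median centring, with a pseudocount of 32 or a 3-fold threshold, and with the PBS Tg array as vehicle, where the fold was 1.67.

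Thrombomodulin (Thbd), an endothelial and mesothelial receptor for thrombin, was nearly level at 330 (CG Tg), 253 (PBS Tg), 316 (CG WT) and 279 (PBS WT). Its chlorhexidine difference was 1.31-fold in transgenic mice and 1.13-fold in wild type. The wild-type value was -0.01 on the log2 scale after median centring.

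Tfpi, the inhibitor of the complex of tissue factor and factor VII, had 4 probe sets, all Present on all 4 arrays. The probe set that stands for the gene had signals of 116 (CG Tg), 81.6 (PBS Tg), 192 (CG WT) and 39.7 (PBS WT). It was 1.42-fold higher with chlorhexidine in transgenic mice and 4.84-fold higher in wild type. The 4 probe sets differed in size, with log2 differences of -0.08 to 0.80 in transgenic mice and 0.57 to 2.28 in wild type. Their mean was 0.40 ± 0.37 in transgenic mice and 1.55 ± 0.74 in wild type (SD between 4 probe sets of the same arrays, not between mice). In wild type all 4 lay above 0, and in transgenic mice 3 of 4 did. The probe set with the smallest wild-type difference, 1.48-fold, had signals of 77.6 (CG Tg), 59.3 (PBS Tg), 92.6 (CG WT) and 62.5 (PBS WT), with the vehicle arrays close together.

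Tfpi2, a Kunitz inhibitor of plasmin and of matrix-degrading proteases, had signals of 57.2 (CG Tg), 41.1 (PBS Tg), 98.5 (CG WT) and 26.0 (PBS WT). It was 1.39-fold higher with chlorhexidine in transgenic mice and 3.79-fold higher in wild type. Over the arrays it followed the same order as Tfpi, CG WT, CG Tg, PBS Tg and PBS WT from bright to dim. By the probe set used for each gene, that order held for 5 of the 8 genes, Plat, Plaur, F3, Tfpi and Tfpi2, and for 12.7% of all genes tested. A Tfpi probe set not used for the gene had PBS WT at 62.5 above PBS Tg at 59.3. Another had PBS Tg at 49.1 above CG Tg at 46.4.

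**Figure D2:**
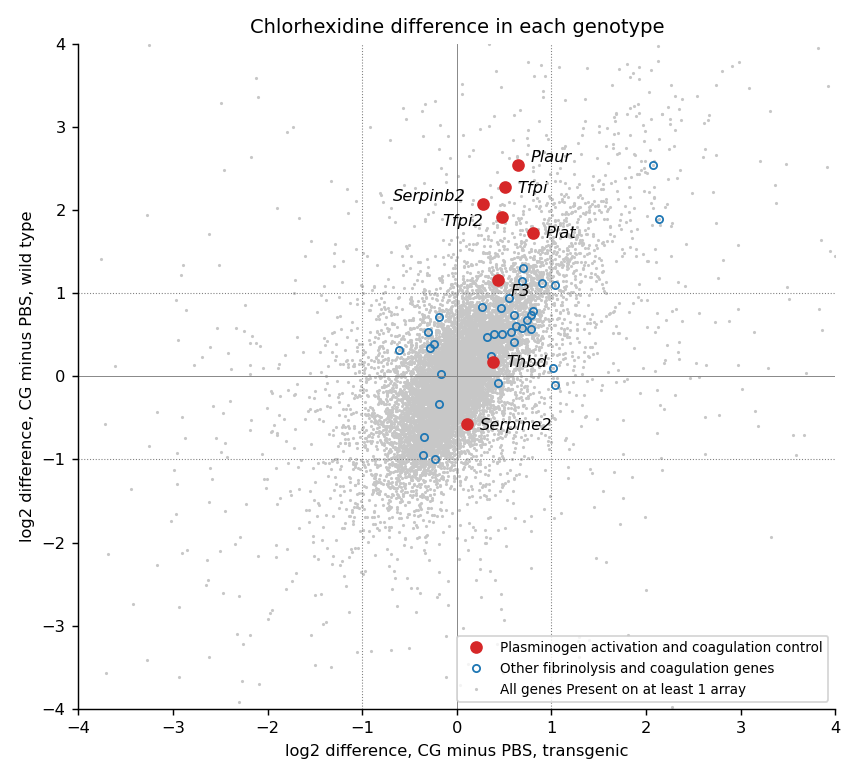
Log2 difference of chlorhexidine minus vehicle in transgenic (horizontal) and wild-type mice (vertical), 1 array per group, for the 8 detected genes (red, named), 35 other genes of fibrinolysis and coagulation (blue rings) and all genes (grey, 12755 less those outside the axes). Dotted lines mark 2-fold, and Plaur, Tfpi, Tfpi2, Plat and F3 lie above the upper line in wild type but left of the right-hand line in transgenic mice.

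An additive limma fit (treatment and genotype, 1 residual degree of freedom) used the genotypes as the only repeat of the treatment. After Benjamini-Hochberg adjustment over all 12755 genes, 0 of the 8 genes passed, against 0.0941% of all genes. At an unadjusted p under 0.05 there were 5 of the 8, and 23.0% of all genes. Plat had the lowest adjusted p in limma, 0.114, with a log2 coefficient of 1.27 ± 0.30 (SE). Plaur had 1.59 ± 0.48 (SE) with an adjusted p of 0.164 in limma, and Tfpi 1.39 ± 0.46 (SE) with 0.181. In such a fit, a response that differs with genotype adds to the residual, and 5 or 6 of these genes passed in it under 3 other settings, where 18.5% to 21.4% of all genes also passed.

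Between genotypes, the 8 genes had a median log2 difference of 0.58 among vehicle arrays and -0.36 among chlorhexidine arrays. Among vehicle arrays, 2 of the 8 genes were called higher in transgenic mice, Plaur at 2.69-fold and Tfpi at 2.06-fold, where the background was 0.956%. None was called lower, against 0.502% of all genes. The Tfpi call was lost after quantile normalization, median centring or averaging its probe sets, 1 of which lay at -0.08 on the log2 scale, and both calls were lost with a pseudocount of 32 or a 3-fold threshold. Serpinb2 was 5.98-fold higher over its Absent PBS WT signal, with a PBS Tg signal just under the 25th percentile of 34.7, and was not called. Among chlorhexidine arrays none of the 8 was called, against 0.784% of all genes higher and 0.964% lower. There Tfpi2 was 1.72-fold lower in transgenic mice, Tfpi 1.65-fold lower and Plaur 1.38-fold lower, whereas Serpinb2 was 1.72-fold higher.

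When the wild-type log2 difference was subtracted from the transgenic one, the result was called lower for 4 of the 8 genes, against 2.95% of all genes. They were Plaur (-1.90), Tfpi (-1.77), Tfpi2 (-1.44) and Serpinb2 (-1.79) on the log2 scale. The Serpinb2 value is uncertain because it was Absent on the PBS WT array. For this result, the Present call and the 25th percentile were asked of the brightest of the 4 arrays. Serpinb2 met them on the CG Tg array, at 40.7 against a percentile of 35.4. Its CG WT signal, 23.6, was under the percentile of 35.0 there. The 4 Tfpi probe sets ran from -1.77 to -0.18, with a mean of -1.15. With a pseudocount of 32, Tfpi alone was called (0.98% of all genes), Plaur was at -0.91, Tfpi2 at -0.88 and Serpinb2 at -0.42. None was called higher (1.99% of all genes), and Serpine2 had the highest value, 0.68. This difference could not be tested, since the model that holds it leaves no residual degrees of freedom.

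Since the vehicle arrays of the genotypes differed, each chlorhexidine array was also set against the vehicle array of the other genotype. Against PBS Tg, the CG WT array kept 4 of its 5 calls, with Tfpi2 2.40-fold, Tfpi 2.36-fold, Plat 2.33-fold and Plaur 2.16-fold higher. By the same rule 7.23% of all genes were called higher there and 3.57% lower. Against PBS WT, the CG Tg array had 5 genes called higher in place of 0, where 5.17% of all genes were called higher and 2.45% lower. These were Serpinb2 (7.25-fold over an Absent signal), Plaur (4.21-fold), Tfpi (2.93-fold), Plat (2.49-fold) and Tfpi2 (2.20-fold). The part of the 18S rRNA and beta-actin values of the PBS WT array in these results was not tested.

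**Figure D3:**
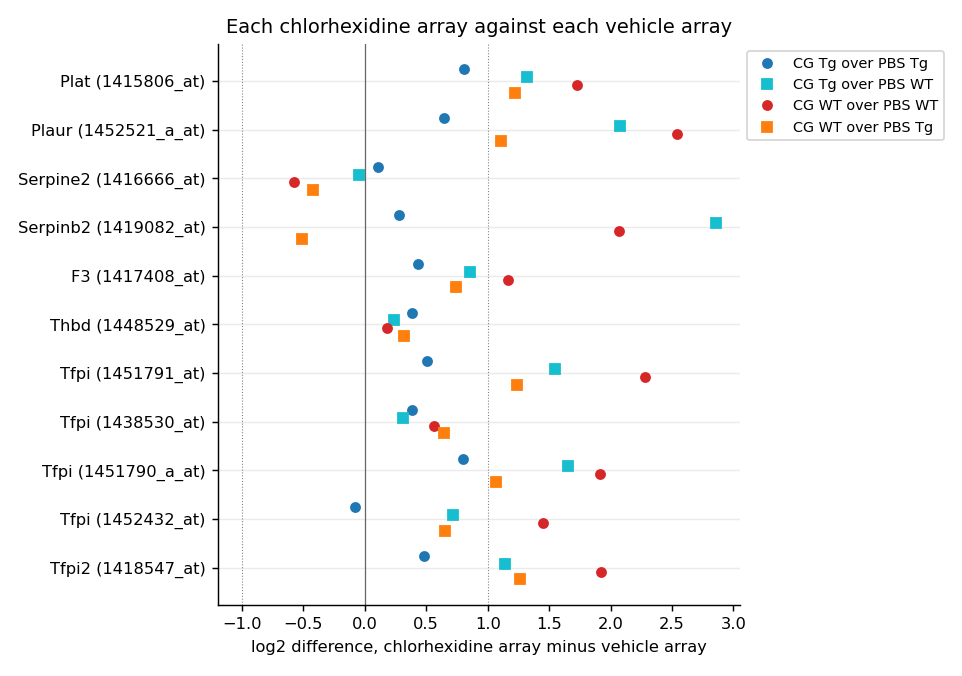
Log2 difference of each chlorhexidine array against each vehicle array for the 11 probe sets Present on at least 3 arrays. Circles use the vehicle array of the same genotype and squares that of the other, 1 array per group, and dotted lines mark 2-fold. The squares for CG Tg over PBS WT lie to the right of the circles for CG Tg over PBS Tg for 8 of the 11 probe sets, all but those of Serpine2, Thbd and 1 of Tfpi, and Thbd stays between 0.18 and 0.38.

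Other genes of fibrinolysis and coagulation were counted by the same rule. Of 59 listed, 55 were measured and 35 were Present on at least 1 array. Of these 35, 3 were called higher in transgenic mice and 6 in wild type, and 0 were called lower in either. For all genes the shares higher were 3.81% in transgenic mice and 8.22% in wild type, and the shares lower 1.4% and 4.93%. The same 3 genes were called in both genotypes, 8.57% of the 35, where the background was 3.03% of all genes. The median log2 difference of all 35 was 0.55 in transgenic mice and 0.53 in wild type. Their median difference of differences was -0.04, with 0 genes called.

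Mmp3, stromelysin, a matrix protease that plasmin can activate, was 4.22-fold higher with chlorhexidine in transgenic mice and 5.85-fold in wild type. Its signals were 583 (CG Tg), 138 (PBS Tg), 622 (CG WT) and 106 (PBS WT). Kng1, kininogen, the bradykinin precursor and a cofactor of contact activation, was 4.39-fold and 3.72-fold higher, at 153 (CG Tg), 34.7 (PBS Tg), 172 (CG WT) and 46.1 (PBS WT). Lrp1, an endocytic receptor that clears complexes of proteases with their inhibitors, was 2.05-fold higher in transgenic mice and 2.14-fold in wild type. The signals of Lrp1 were 1161 (CG Tg), 568 (PBS Tg), 1243 (CG WT) and 580 (PBS WT). For Mmp3, Kng1 and Lrp1 both chlorhexidine arrays stood above both vehicle arrays and close to each other.

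The genes called in wild type alone, named after their values were seen, were F2r, the thrombin receptor, Vkorc1, which recycles vitamin K, and Pros1, protein S. F2r was 1.63-fold higher with chlorhexidine in transgenic mice and 2.47-fold in wild type. Vkorc1 was 1.61-fold and 2.22-fold higher, and Pros1 1.86-fold and 2.19-fold higher, in transgenic and wild-type mice. Between vehicle arrays, 1 of the 35 was called, the complement protease Masp1, 2.19-fold lower in transgenic mice. By the same rule, 0.956% of all genes were called higher there and 0.502% lower.

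By role, 12 plasminogen system genes, 11 coagulation factors and 12 anticoagulants and thrombin receptors were tested. The plasminogen system had median log2 differences of 0.40 in transgenic mice and 0.52 in wild type, with 2 genes called higher in each, Mmp3 and Lrp1. The coagulation factors had medians of 0.57 and 0.58, with 1 and 2 genes called. The anticoagulants and thrombin receptors had medians of 0.61 and 0.56, with 0 and 2 genes called. In lists of 11 or 12 genes, the shares of all genes called higher, 3.81% and 8.22%, come to at most 1 gene each. Plasminogen itself (Plg) and the fibrinogen chains Fga, Fgb and Fgg, which the liver makes, were called Present on no array.

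**Figure D4:**
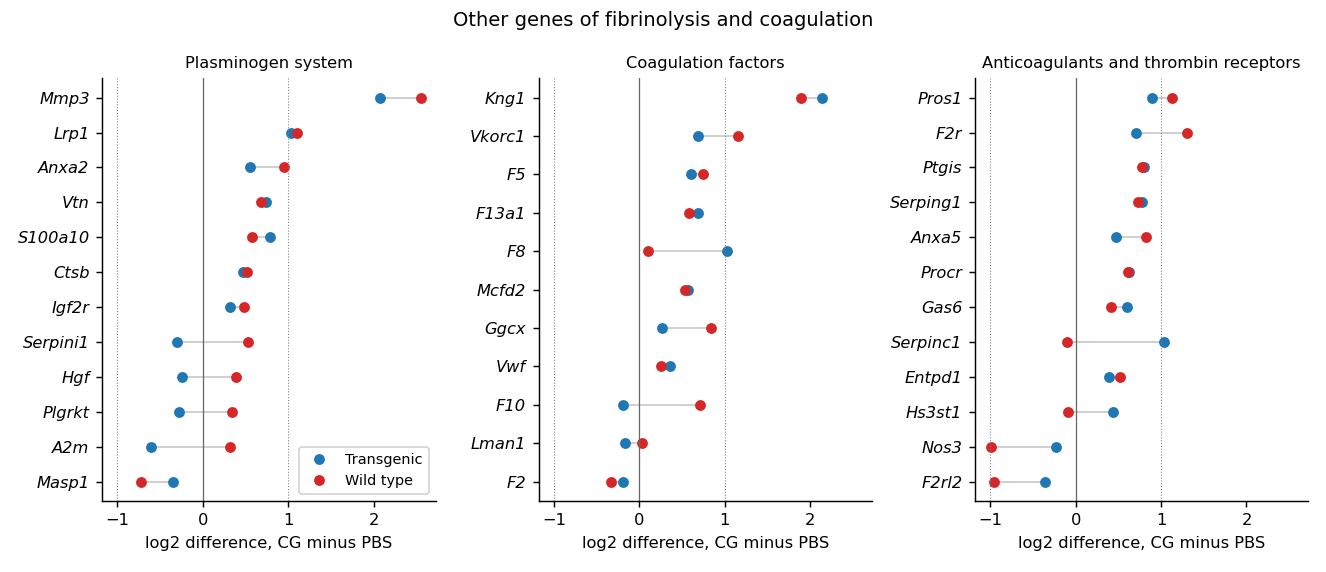
Log2 difference of chlorhexidine minus vehicle in transgenic (blue) and wild-type mice (red), 1 array per group, for 35 other genes of fibrinolysis and coagulation, sorted within 3 groups by the mean of the points. Dotted lines mark 2-fold, and Mmp3, Lrp1 and Kng1 lie beyond it in both genotypes.

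Some of these genes are made by cell types whose marker levels also differed between arrays. All 8 monocyte and macrophage markers were Present on every array, and their summed signal was 9473 (CG Tg), 6434 (PBS Tg), 9992 (CG WT) and 5739 (PBS WT). The 6 fibroblast markers summed to 22639 (CG Tg), 13850 (PBS Tg), 26723 (CG WT) and 13233 (PBS WT). The 9 endothelial markers, of cells that carry Thbd, Tfpi and Plat, summed to 1199 (CG Tg), 1282 (PBS Tg), 1435 (CG WT) and 1066 (PBS WT). These 3 sums were lowest on the PBS WT array, as was the neutrophil sum given below. The signals of Plat, Plaur, F3, Tfpi and Tfpi2 were also lowest there, and Serpinb2 was Absent there. The 6 skeletal muscle markers instead summed highest on the PBS WT array, at 58042, with 49569 (CG Tg), 46895 (PBS Tg) and 49525 (CG WT). Single markers did not all follow the sums. Between vehicle arrays, 3 fibroblast markers were higher in transgenic mice and 3 lower, with a median log2 difference of -0.006. Of the monocyte and macrophage markers 2 of 8 were lower in transgenic mice, and of the endothelial markers 1 of 9.

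The 9 mesothelial markers ran otherwise, at 969 (CG Tg), 1185 (PBS Tg), 518 (CG WT) and 1515 (PBS WT). Single markers did not all follow this sum, to which Slpi gave 341 (CG Tg) and 547 (PBS Tg). With chlorhexidine, 5 of the 9 were higher and 4 lower in transgenic mice, with a median log2 difference of 0.05. In wild type 8 were lower and 1 higher, with a median of -0.83. The neutrophil sum was highest on the CG Tg array, at 2194, with 249 (PBS Tg), 466 (CG WT) and 109 (PBS WT), and 4 of 7 measured markers were Present on any array, with the granule genes Camp, Mpo and Elane on none. S100a8 and S100a9 made up most of that sum, with 1066 and 930 on the CG Tg array. Ngp was lowest on the CG WT array, at 12.3, against 22.5 on the PBS WT array. Csf3r, the granulocyte colony-stimulating factor receptor, had signals of 113 (CG Tg), 31.7 (PBS Tg), 93.8 (CG WT) and 17.8 (PBS WT). The 5 platelet markers summed to 1103 (CG Tg), 683 (PBS Tg), 831 (CG WT) and 740 (PBS WT). Pf4 made up most of each sum, such as 641 on the PBS WT array. With chlorhexidine all 5 lay above 0 in transgenic mice and 4 in wild type. Ppbp was 3.81-fold and 2.16-fold higher there. The 4 measured adipocyte markers summed to 8088 (CG Tg), 11072 (PBS Tg), 5984 (CG WT) and 10746 (PBS WT). Fabp4 gave 5413 of the CG Tg sum and 6225 of the PBS Tg sum. All 4 were lower with chlorhexidine in both genotypes. Lep was Present at 354 (PBS Tg) and 169 (PBS WT) and Absent on both chlorhexidine arrays. The part of these cell types in the results was not tested.

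The genes whose profile over the 4 arrays was nearest to those of Plaur and Tfpi, the genes with the largest mean chlorhexidine difference, were listed by Euclidean distance of centred log2 signal among 12747 genes. Nearest to Plaur were Nfam1 (0.12), an immunoreceptor adaptor, Slfn5 (0.16), a schlafen gene, and Hmox1 (0.19), haem oxygenase 1. Nearest to Tfpi were Upp1 (0.12), uridine phosphorylase, Nt5dc2 (0.21) and Fam171b (0.24). Nfam1 was dim, at 25.7 (CG Tg), 14.7 (PBS Tg), 33.1 (CG WT) and 5.97 (PBS WT). Each value lay under the 25th percentile of Present signals on its array. Upp1 was at 8.43 on the PBS WT array. The distances rest on 4 arrays and describe these arrays alone.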

How the data were processed

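Total RNA of the parietal peritoneum (RNeasy Mini Kit) was labelled with biotin and hybridised to 4 Affymetrix arrays, per the labels' protocols. The deposited values are signals, an intensity on a linear scale per probe set, each with a detection call and a detection p-value that the authors deposited. The p-values were not used in any test. No source used here gives the algorithm or scaling target, and scanner files were not analysed here. Intensities in the deposited series table were checked against the arrays, and 0 values differed.

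Without 64 control probe sets, each array was multiplied to a common 2% trimmed mean (factors 1.01 for CG Tg, 0.877 for PBS Tg, 0.984 for CG WT and 1.17 for PBS WT), floored at 0.1 and log2-transformed. Of 45037 probe sets, 34945 had 1 gene symbol in the platform annotation, 932 several and 9160 none, and names were updated through Entrez identifiers to RefSeq (GRCm38.p6). Of the 14 probe sets, 13 were named from that table and that of Serpine2 from the arrays' description column. Of several probe sets, the one brightest on average in log2 stood for the gene. A fold against an array without a Present call was computed against that array's lowest Present signal or the probe set's own, whichever was higher. Such a fold is not a strict bound, since other probe sets were Absent at higher signals, such as S100a9 at 14.0 on PBS WT.

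The fit used limma 3.58.1 in R 4.3.3, and other steps Python 3.11.15. The genes and lists were chosen with earlier results of these data known. Pathway genes were named when called the same way in both genotypes, and others by the rules given beside them. The AP-1 motif was chosen after seeing the data. Alternatives were other scalings, a pseudocount, thresholds, filters, probe sets and vehicle arrays. The rules were tested on simulated data. There every gene was Present, all genes had the same noise, and only genes above the threshold for dim signals were changed. That test therefore does not show how the rules treat changes in Absent or dim signals. Precision is limited by the number of arrays, 1 per group.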

Additional observations from a re-analysis of the deposited data

Results flagged for a closer look

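For Serpine2, the chlorhexidine difference had opposite signs in the genotypes, 0.11 on the log2 scale in transgenic mice and -0.57 in wild type, a difference of 0.68. The transgenic value was -0.10 with signals as deposited and -0.05 against the PBS WT array, so the signs were not opposite there. For 1 of the 4 Tfpi probe sets the signs were also opposite, -0.08 in transgenic mice and 1.45 in wild type, a difference of -1.53, while the other 3 Tfpi probe sets lay above 0 in both genotypes. Each rests on 1 array per group, and neither difference was tested.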

How the results depend on the processing

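Of 94 counts of called genes recomputed under other settings, 83 stayed within 1.5 times the reported count. Most of the 83 were counts of 0 that stayed 0, so the share says little about the counts above 0. No called log2 difference changed sign. The wild-type count of 5 ran from 4 to 6, with F3 lost wherever it was 4 and Serpinb2 gained without the filter on dim probe sets. Over these settings, 3.32% to 16.6% of all genes were called higher. In transgenic mice the chlorhexidine count of 0 was 2 at a 1.5-fold threshold (Plat and Plaur), where 9.77% of all genes were called higher. It was 5 with the PBS WT array as vehicle (5.17% of all genes). The vehicle count of 2 was 1 after quantile normalization, median centring or averaging all probe sets (Plaur alone), and 0 with a pseudocount of 32 or a 3-fold threshold. The shares of all genes in these settings were 0.721%, 0.768%, 2.96%, 0.306% and 0.243% in turn. Between chlorhexidine arrays, a 1.5-fold threshold gave 1 higher (Serpinb2) and 2 lower (Tfpi and Tfpi2) in place of 0. Of all genes, it called 3.46% higher and 4.3% lower there. For the difference of differences, a 1.5-fold threshold gave 1 higher (Serpine2) in place of 0, where 8.66% of all genes were called higher. A pseudocount of 32 gave 1 lower (Tfpi) in place of 4, where 0.98% of all genes were called lower. The limma count of 0 was 6 with an intensity trend, 5 with a pseudocount of 32, 5 over genes Present on all 4 arrays (2228 of 10407 genes passed) and 1 (Plaur) with signals as deposited. The cause was not tested. Over all genes, the median wild-type log2 difference was 0.25 with signals as deposited, -0.11 after quantile normalization and -0.18 after median centring. In that comparison 12.4% of genes were called higher and 2.49% lower as deposited, and 6.06% and 8.41% after median centring. The additive limma fit already sets chlorhexidine against vehicle within genotype, and there are no replicate numbers to pair arrays further. Signals near the Absent range, as for Plau and Serpinb2, limit those values.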
